A study of Drosophila melanogaster with 42 samples.

Results

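The replication-dependent histone genes of Drosophila melanogaster are the copies of His1, His2A, His2B, His3 and His4 in the histone gene array. They were taken as all symbols of the count table that start with His1:, His2A:, His2B:, His3: or His4:. That gave 31 of the 17208 genes in the table: 12 copies of His1, 4 of His2A, 7 of His2B, 2 of His3 and 6 of His4. Near-identical copies share reads, so the counts of the copies were added up into 1 value per type, and single copies are described below without a test.

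The series measured RNA from wing imaginal discs, the larval tissue that forms the adult wing and dorsal thorax, in third-instar larvae with mutations of fat (ft). Fat, a very large cadherin of the cell surface, restrains growth through the Hippo pathway and takes part in planar cell polarity. On the NovaSeq X Plus were sequenced wild type (n = 2), Fd5-5 (n = 2), delta HpoC (n = 5), delta HpoN+PH (n = 4), delta PCP (n = 5) and delta D (n = 3), and on the NovaSeq 6000 delta A, delta B and delta E (n = 4 each) with delta C, delta F and a wild type (n = 3 each). Wild type is w1118.csvd111 in the library names; the HpoC, HpoN+PH and PCP deletions remove functional domains and the lettered ones conserved regions of the Fat intracellular domain. Fd5-5 is read as the fat null only because the other labels name a region. The labels give neither the sex nor the number of larvae behind a library, nor whether replicates are separate animals or pools, so p-values measure only the spread between these libraries.

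Replication-dependent histones package newly made DNA, and their genes are transcribed mainly in S phase. Their mRNAs end in a stem-loop instead of a poly(A) tail: Slbp (stem-loop binding protein) binds it, and the U7 small nuclear ribonucleoprotein guides the cut that forms the end. In Drosophila the genes stand in tandem repeats on chromosome 2L, whose unit holds 1 gene of every type, and mxc and mute belong to the histone locus body that assembles there. Cells of the growing disc divide through much of the third instar.

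Total counts ran from 19538216 to 48392408 per library, of which 1300 to 11706 were on histone genes. The share of counts on ribosomal RNA (46 genes with rRNA in the symbol) was 5.11 to 17.43% in 21 libraries and 0.79 to 1.68% in the other 21; both sets are called here the high and the low ribosomal RNA class. Delta A, delta C, delta F and the X Plus wild type were high throughout, and Fd5-5, delta D and the 6000 wild type low throughout. HpoC (3 high, 2 low), delta B (3 and 1), HpoN+PH (1 and 3), delta E (1 and 3) and PCP (1 and 4) held both. Class and genotype therefore cannot be told apart in 7 of the 12 groups, and the wild types of the sequencers lie in opposite classes. An earlier account of these data found 8 libraries out of place among their labels: PCP 1, 2 and 5, HpoN+PH 1, HpoC 1 and 2, delta E 4 and delta B 4. Comparisons of their groups with wild type on the same sequencer are given also without them. Without them no group holds both classes, so every fit with the class as a term and every contrast of classes inside a group rests on these 8 libraries. The wing disc genes vg, nub, ap, sd, wg and hth summed to 1910 to 3590 CPM (counts scaled to library size) in every library, and ft was read in every label at 220 to 767 CPM.

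The annotation of genome release 6 (dm6) places 111 copies between 21416953 and 21541681 on chromosome 2L, and 31 of them (27.9%) have a row in the table. The other 80 copies were not analysed here. Listed were 12 of 23 copies of His1, 4 of 20 of His2A, 7 of 23 of His2B, 2 of 23 of His3 and 6 of 22 of His4. Every copy of His1, His2A and His3 lies on the plus strand and every copy of His2B and His4 on the minus strand, each as 1 exon without an intron. Annotated transcripts have 1023 bases for His1, 476 to 493 for His2A, 595 for His2B, 529 for His3 and 412 to 528 for His4.

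Within a type 1 copy held most of the counts. His1:CG33840 (FBgn0053840, 21496586 to 21497608) held 71.4% of all linker histone counts over the 42 libraries, His2B:CG33886 (FBgn0053886, 21492700 to 21493294) 79.3% and His3:CG33833 (FBgn0053833, 21484681 to 21485209) 95.3% of the counts of their types. His2A:CG33808 (FBgn0053808, 21433862 to 21434337) held 62.8%, and His4:CG33901 (FBgn0053901, 21453790 to 21454202) held 72.1%. At the other end, His2A:CG33859 had 8.0 counts in 1 library, His1:CG33858 23.9 counts in 2 libraries and His4:CG33877 31.1 counts in 8 libraries. His2B:CG17949, with 167.8 counts in 15 libraries, was the lowest of its type, and His3:CG33827, with 742.1 counts in 23 libraries, was the only other His3 copy. Of the 31 copies, 2 were above 0 in all 42 libraries, His3:CG33833 and His2B:CG33886. The leading copies of the types stand in different repeats of the array. How the authors' software shares reads between equal sequences decides such values, and 43.0% of the histone values were fractions against 24.6% over the table.

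**Figure D1:**
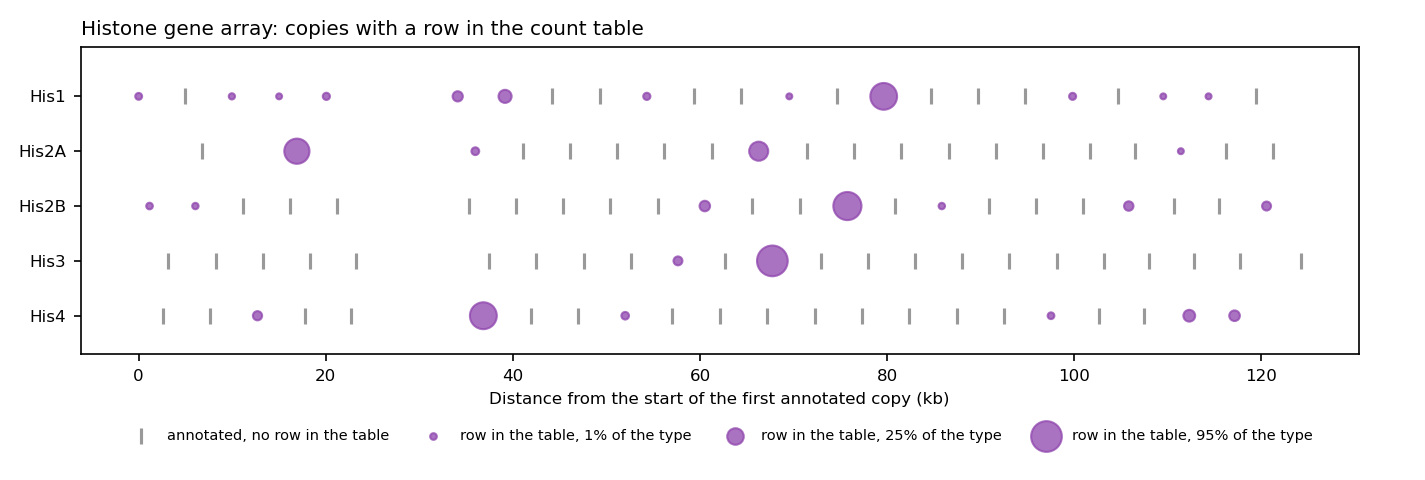
Position of each annotated histone copy along the array, as distance in kb from the start of the first copy, with 1 line per type. Grey ticks are copies with no row in the table, and circles are the 31 copies with a row, their area growing with the copy's percent of the type's summed counts; the largest circles are His3:CG33833 (95.3%) and His2B:CG33886 (79.3%).

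His1, the linker histone that binds DNA between nucleosomes, was read in wild type at 151 and 158 CPM on the X Plus and at 37.5, 63.9 and 89.5 CPM on the 6000. His2B, a core histone that pairs with His2A, was at 70.0 and 73.2 CPM in the former and at 6.63, 7.23 and 12.1 CPM in the latter. The wild types did not overlap in either, and the X Plus libraries were the higher ones. Per kb of transcript, wild type on the X Plus had 151 ± 4.5 CPM of His1, 120 ± 3.82 of His2B, 46.4 ± 4.77 of His2A, 27.6 ± 8.37 of His3 and 3.91 ± 1.14 of His4 (SD, n = 2). On the 6000 the per-kb levels were 62.2 ± 25.4 CPM of His1, 14.5 ± 5.05 of His2B, 11.8 ± 1.19 of His2A, 8.71 ± 2.18 of His3 and 3.07 ± 1.76 of His4 (n = 3). The core histones enter the nucleosome in equal number, but their per-kb levels here differed, with His4 the lowest in both wild types. These levels sum only the listed copies, 7 of 23 for His2B, 4 of 20 for His2A, 2 of 23 for His3 and 6 of 22 for His4. They are also divided by the full annotated length, which was not corrected for the reads that short transcripts can give. They therefore do not show the relative amounts of mRNA of whole types.

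Over the 12 groups, His2B had the largest ratio of highest to lowest group mean. Its mean level was 71.6 ± 2.27 CPM in the X Plus wild type, 43.1 ± 5.2 in delta A, 31 ± 42.1 in PCP and 22.3 ± 2.24 in delta C. It was between 11.4 and 15.1 CPM in HpoN+PH, delta F, HpoC, delta E and delta B, neighbours in that order whose libraries overlapped. Below them stood Fd5-5 at 9.06 ± 0.193, wild type on the 6000 at 8.66 ± 3.01 and delta D at 7.54 ± 1.58 CPM, which also overlapped. The high mean and spread of PCP came from 1 library: PCP 1 to 4 were at 11.9, 8.88, 13.7 and 14.2 CPM and PCP 5 at 106 CPM.

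His1 showed a similar division, with wild type on the X Plus at 155 ± 4.6 CPM and delta A at 161, 147, 165 and 153 CPM above the rest. Apart from PCP 5, at 193 CPM, all other libraries lay between 24 and 105 CPM. Delta B was the lowest group, at 44.8, 30.8, 24 and 44.6 CPM.

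His2A, the partner of His2B, fell into 2 levels instead. It was at 17.7 to 24.5 CPM in every library of delta A, delta C, delta F and the X Plus wild type, and at 4.35 to 6.48 CPM in all libraries of Fd5-5, delta D and wild type on the 6000. His3, which pairs with His4 in the nucleosome core, was highest in delta B (36.8, 29.4, 45.5 and 4.41 CPM) and delta F (25.4, 22 and 18.6 CPM) and lowest by group mean in Fd5-5, delta D and wild type on the 6000 (3.22 to 5.77 CPM). His4 was low throughout, at 10 to 266 counts and 0.428 to 8.99 CPM per library, with its extremes in wild type 6000 1 and delta B 3.

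**Figure D2:**
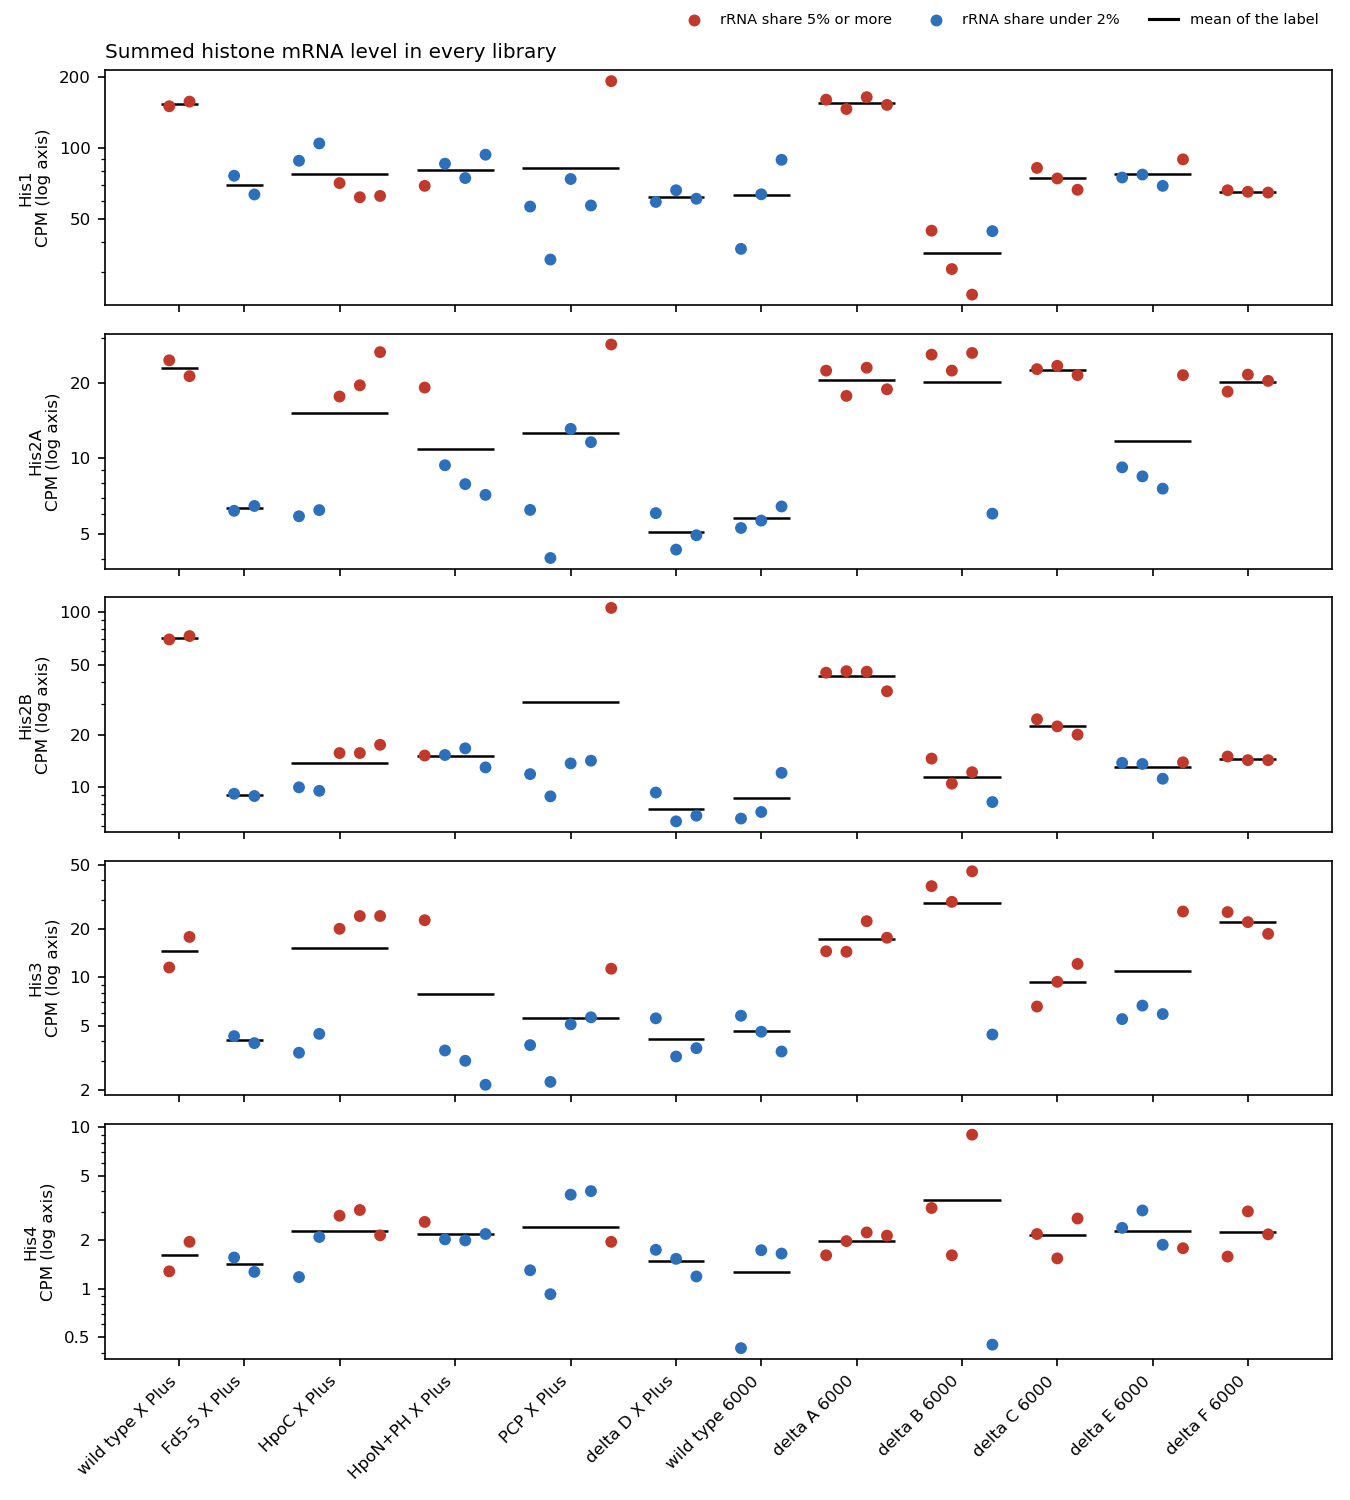
Summed level of each histone type in each of the 42 libraries (CPM, log axis), by group, with the mean of the group as a bar and the ribosomal RNA class as colour. His2A and His3 follow the colour, with the high-class libraries of a mixed group above its low-class ones, whereas His1 and His2B are high in wild type on the X Plus, PCP 5 and delta A.

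Fd5-5 was compared with wild type on the X Plus, and Fd5-5 was low class in both libraries where that wild type was high in both, so genotype and class cannot be told apart. The ft level was 592 and 691 CPM in Fd5-5 against 371 and 328 CPM, so it does not check the label. Histone levels were lower in Fd5-5 without reaching the threshold: His2B was at 9.19 and 8.92 against 70.0 and 73.2 CPM (log2 −2.99, SE 0.89, edgeR adjusted p = 0.064), His2A at 6.2 and 6.48 against 24.5 and 21.2 CPM (log2 −1.86, SE 0.78, edgeR adjusted p = 0.144) and His1 at 76.6 and 63.8 against 151 and 158 CPM (log2 −1.15, SE 0.52, edgeR adjusted p = 0.154). The groups did not overlap in these types or in His3 (log2 −1.84). The share of all rows without overlap is not given here, so this is not read as particular to histones. None of the 5 types was called by edgeR or DESeq2, against 4.48% of all rows tested (3.71% higher, 0.772% lower), and 3 had an unadjusted p under 0.05. In bulk RNA, fewer cells in S phase and less histone mRNA per cell cannot be told apart. Without the 8 libraries found out of place, none of them in these groups, 4 of 5 types were called lower (4 types at log2 −1.13 to −2.97; 64.2% of all rows called in that fit).

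HpoC, HpoN+PH and PCP remove the domains of Fat that act on Hippo signalling and planar polarity. His2B fell in HpoC, at 10, 9.55, 15.7, 15.7 and 17.5 CPM against 70.0 and 73.2 CPM (log2 −2.39, SE 0.64, edgeR adjusted p = 0.0442), the only type called of 5 (3.86% of all rows called, 3.06% higher and 0.800% lower). In HpoN+PH it was at 15.2, 15.3, 16.7 and 13 CPM (log2 −2.26, SE 0.68, edgeR adjusted p = 0.0684), where 0 of 5 types were called by edgeR or DESeq2 (4.83% of all rows, 3.77% higher and 1.07% lower) and 2 had an unadjusted p under 0.05. PCP likewise had 0 called by either tool (3.61% of all rows, 3.53% higher and 0.0744% lower), 1 of them with an unadjusted p under 0.05, and its His2B log2 difference of −1.21 (SE 0.65, edgeR adjusted p = 0.256) held PCP 5 at 106 CPM. Leaving out PCP 5 gave log2 −2.56 for His2B and −1.49 for His1, both called (edgeR). The HpoC call was lost without any 1 of its 7 libraries (edgeR adjusted p from 0.064 to 0.284), and without HpoN+PH 1, the high-class library of that group, His3 was called lower (log2 −2.34, edgeR adjusted p = 0.0466).

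These 3 groups held both ribosomal RNA classes, while their wild type was high in both libraries. Among high-class libraries alone, HpoC 3 to 5 had lower His1 (log2 −1.20) and His2B (log2 −2.10) and higher His3 (log2 0.68) than wild type, all 3 called, against 46.5% of all rows. HpoN+PH 1 had lower His1 (log2 −1.12) and His2B (log2 −2.19), both called (35.6% of all rows), and PCP 5 higher His2B (log2 0.59, edgeR adjusted p = 0.0211; 2.22% of all rows); each is a lone library, taken to vary like the other groups. Without the 8 libraries HpoC had 3 of 5 types called, HpoN+PH 4 of 5 and PCP 5 of 5, on 39.7%, 64.9% and 53.2% of all rows.

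Delta D, the conserved region sequenced on the X Plus, had 3 of 5 types called, all lower than wild type, on 26.6% of all rows called (11.3% higher, 15.3% lower). His2B was at 9.34, 6.39 and 6.89 CPM against 70.0 and 73.2 CPM (log2 −3.25, SE 0.77, edgeR adjusted p = 0.0109), His2A at 6.07, 4.35 and 4.96 against 24.5 and 21.2 CPM (log2 −2.16, SE 0.69, edgeR adjusted p = 0.0351) and His1 at 59.3, 66.5 and 61.2 against 151 and 158 CPM (log2 −1.32, SE 0.46, edgeR adjusted p = 0.0459). No library of delta D overlapped with wild type in these types, but the share of all rows without overlap is not given here. Leaving out any 1 of the 5 libraries left at most 1 type called, His2B, and leaving out wild type 2 left 0. The log2 differences without 1 library stayed between −1.28 and −1.37 for His1, −2.05 and −2.30 for His2A and −3.15 and −3.43 for His2B. With the class as a term 0 of 5 were called (7.72% of all rows), at log2 −0.99 for His1, −0.54 for His2A and −1.77 for His2B. Delta D differed from Fd5-5 in 0 of 5 types (0.614% of all rows called, 0.344% with Fd5-5 higher and 0.270% lower; 0 types with an unadjusted p under 0.05 and 0 by DESeq2), with a log2 difference of 0.27 for His2B (SE 0.75) and 0.17 for His1 (SE 0.47).

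Delta A had the most types called on the 6000, with 4 of 5 higher than wild type on 58.5% of all rows called (30.4% higher, 28.1% lower). His2B was at 45.2, 46.1, 45.8 and 35.4 against 6.63, 7.23 and 12.1 CPM (log2 2.28, SE 0.22, edgeR adjusted p = 2.6e-05). His1 was at 161, 147, 165 and 153 against 37.5, 63.9 and 89.5 CPM (log2 1.26, SE 0.24, edgeR adjusted p = 0.00119). His2A rose by log2 1.78 (SE 0.40, edgeR adjusted p = 0.00234) and His3, at 14.5, 14.4, 22.3 and 17.6 against 5.77, 4.59 and 3.46 CPM, by log2 1.87 (SE 0.61, edgeR adjusted p = 0.0154). The groups did not overlap in these 4 types, and delta A was entirely high class and this wild type entirely low. The share of all rows without overlap is not given here. With the class as a term, His1 (log2 1.37, edgeR adjusted p = 0.0275) and His2B (log2 1.97, edgeR adjusted p = 0.00142) were still called, on 4.22% of all rows, and His3 turned to log2 −0.65. Without wild type 3 the His3 call was lost (log2 1.70, edgeR adjusted p = 0.0619).

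Delta C and delta F, also high class throughout, had His2A higher without a matching change of His1. His2A was at 22.6, 23.3 and 21.4 CPM in delta C (log2 1.92, SE 0.41, edgeR adjusted p = 0.000822) and at 18.4, 21.5 and 20.3 CPM in delta F (log2 1.72, SE 0.41, edgeR adjusted p = 0.00372), against 5.3, 5.67 and 6.45 CPM in wild type. His2B rose by log2 1.33 in delta C (SE 0.22, edgeR adjusted p = 0.000201) and by log2 0.68 in delta F (SE 0.22, edgeR adjusted p = 0.0139), and His3 rose in delta F (log2 2.19, SE 0.64, edgeR adjusted p = 0.00876). In all 2 of 5 types were called in delta C (65.8% of all rows, 33.9% higher and 31.9% lower) and 3 of 5 in delta F (56.7% of all rows, 28.2% higher and 28.5% lower). His1 had a log2 difference of 0.20 (SE 0.25) in delta C and −0.03 (SE 0.25) in delta F, with overlapping libraries. With the class as a term only His2B in delta C stayed called (log2 1.03, edgeR adjusted p = 0.0293) on 13.0% of all rows, 0 of 5 were called in delta F on 0.281%, and His3 in delta F turned to log2 −0.33. The His2B call in delta F was lost without wild type 1 (log2 0.51, edgeR adjusted p = 0.0726) or wild type 2 (log2 0.56, edgeR adjusted p = 0.067).

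Delta B differed by type: His1 fell (log2 −0.85, SE 0.23, edgeR adjusted p = 0.0189) while His2A (log2 1.76, SE 0.39, edgeR adjusted p = 0.0114) and His3 (log2 2.63, SE 0.63, edgeR adjusted p = 0.0141) rose, 3 of 5 on 32.3% of all rows (19.5% higher, 12.8% lower). The 3 high-class libraries of delta B had 25.8, 22.3 and 26.2 CPM of His2A and the low-class one, delta B 4, had 6.04 CPM, so the groups overlapped in His2A. They overlapped also in His3, through delta B 4. In His1 they overlapped without that library too, with delta B 1 at 44.8 CPM above wild type 1 at 37.5 CPM. Without delta B 4, one of the 8 out-of-place libraries, all 5 types were called, His2B at log2 0.49 and His4 at log2 1.82 among them, and without the 8 libraries 5 on 64.6% of all rows; without wild type 2 or wild type 3 none was (edgeR adjusted p from 0.0521 to 0.111 for the 3 types), and the His1 call was lost also without delta B 2 or 3 (edgeR adjusted p = 0.0589 and 0.0599). With the class as a term 0 of 5 were called in delta B (0.107% of all rows), at log2 −0.77 for His1, 0.34 for His2A and 0.36 for His3. Delta E had 0 of 5 called by edgeR (5.11% of all rows, 2.87% higher and 2.25% lower) and 1 by DESeq2, His2B at log2 0.58 (DESeq2 adjusted p = 0.048; edgeR adjusted p = 0.11), and 2 types with an unadjusted p under 0.05. Without wild type 3, His2B was called in delta E (log2 0.91, edgeR adjusted p = 0.0199). Its high-class library, delta E 4, stood alone in His2A (21.4 against 7.59 to 9.22 CPM) and His3 (25.6 against 5.5 to 6.67 CPM). Without the 8 libraries His2A was the type called in delta E (log2 0.54, edgeR adjusted p = 0.00814; 15.9% of all rows).

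Delta A, delta C and delta F were all high class, though their ribosomal RNA shares did not overlap, at 13.93 to 17.24% in delta A, 5.11 to 8.04% in delta C and 10.47 to 11.79% in delta F. Delta A against delta C had His1 higher (log2 1.06, SE 0.24, edgeR adjusted p = 0.0184) and His2B higher (log2 0.94, SE 0.20, edgeR adjusted p = 0.0167), 2 of 5 types on 6.23% of all rows (4.27% higher, 1.96% lower). Delta A against delta F had the same 2 types higher, His1 by log2 1.29 (SE 0.24, edgeR adjusted p = 0.00786) and His2B by log2 1.60 (SE 0.21, edgeR adjusted p = 0.000789), on 5.00% of all rows (3.52% higher, 1.48% lower). His2A differed by log2 −0.15 (SE 0.37) and 0.06 (SE 0.37) in these comparisons and was not called. The calls against delta C were lost without any 1 delta C library (edgeR adjusted p from 0.0543 to 0.0941), and His1 against delta F without delta F 1 or 2 (edgeR adjusted p = 0.056 and 0.0528). Delta C against delta F had 0 types called by either tool (0.213% of all rows, 0.136% higher and 0.0775% lower), 1 with an unadjusted p under 0.05: His2B at 24.5, 22.3 and 20 against 15, 14.3 and 14.3 CPM (log2 0.66, SE 0.21, edgeR adjusted p = 0.385).

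Markers of other tissues differed in the same comparisons. All 5 fat body genes were called higher in delta A than in delta C and than in delta F, and their sum was 565 to 11100 CPM in delta A, 2.3 to 4.49 CPM in delta C and 1.59 to 2.79 CPM in delta F. Of 6 salivary gland genes 3 were higher against delta C and 4 against delta F, with sums of 74.3 to 205 CPM in delta A, 2.75 to 9.33 CPM in delta C and 0.672 to 7.72 CPM in delta F. The 1 midgut gene tested was higher in both, and against delta F so were 4 of 5 differentiated muscle and 4 of 4 hemocyte genes. Of 18 ribosomal RNA genes tested, 4 were higher against delta C and 2 against delta F. Among all rows tested, 4.27% were called higher in delta A than in delta C and 3.52% higher than in delta F. The part of these tissues and of the ribosomal RNA share in the His1 and His2B differences was not tested.

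The wild types of the sequencers differed from each other. Wild type on the 6000 was lower than that on the X Plus in His1 (log2 −1.28, SE 0.39, edgeR adjusted p = 0.0202), His2A (log2 −1.98, SE 0.60, edgeR adjusted p = 0.0199) and His2B (log2 −3.05, SE 0.58, edgeR adjusted p = 0.0015), 3 of 5 types on 24.8% of all rows (11.1% higher, 13.8% lower). Only His2B was called without wild type 1 or 2 of either sequencer. Fd5-5 and delta D, low class like wild type on the 6000, had 0 types called against it (log2 −0.20 to 0.22; 0.683% and 0% of all rows), and delta A, high class like wild type on the X Plus, had 0 called against that one (log2 −0.73 for His2B and −0.16 to 0.30 for the others; 0.106% of all rows). Those fits cross sequencers, which cannot be told apart from genotype there. Against wild type on the X Plus, delta B, delta E and delta F had lower His2B (log2 −2.65, −2.45 and −2.30, all called), and delta B lower His1 (log2 −2.10, edgeR adjusted p = 0.000752), on 8.15%, 8.58% and 3.63% of all rows; delta C had 0 types called (6.36% of all rows). Against wild type on the 6000, HpoC and HpoN+PH had 0 called (3.08% and 6.17% of all rows) and PCP had higher His2B (log2 1.84, edgeR adjusted p = 0.0251; 5.34% of all rows). That value holds PCP 5 at 106 CPM; PCP 1 to 4, at 8.88 to 14.2 CPM, overlapped with the 6.63 to 12.1 CPM of that wild type.

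**Figure D3:**
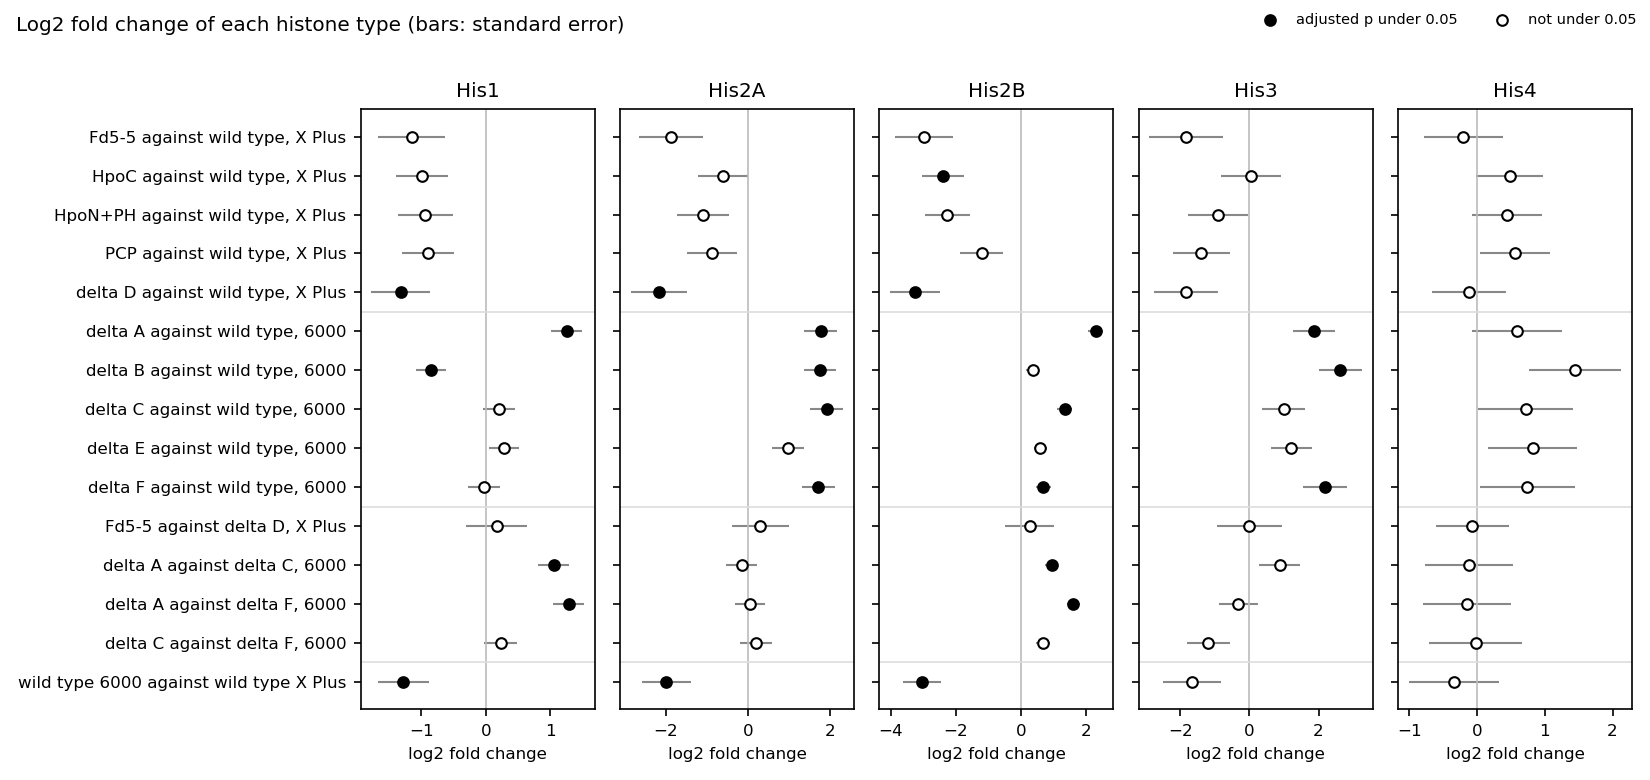
Log2 fold change of each histone type in the 15 comparisons (points, with the standard error as bars), filled where the edgeR adjusted p was under 0.05. The mutants of the X Plus lie at or left of 0 in His1, His2A and His2B and those of the 6000 mostly right of 0, while the comparison of the wild types lies as far left as delta D.

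Over the comparisons with wild type, 4 of 25 pairs of type and mutant were called on the X Plus and 12 of 25 on the 6000. Of all rows tested, 3.61 to 26.6% were called in the mutants of the X Plus and 5.11 to 65.8% in those of the 6000. All 4 pairs on the X Plus were lower than wild type, and 11 of those on the 6000 were higher, the exception being His1 in delta B. His4 was called in none of the 15 comparisons, its log2 differences running from −0.34 to 1.45, and its counts were the lowest.

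The histone types differed in how far their levels moved with the ribosomal RNA class. His2A was at 17.6 to 28.3 CPM in the 21 high-class libraries and at 4.03 to 13.1 CPM in the 21 low-class ones, with no overlap, and its median was 3.44 times as high in the former. His3 was at 6.58 to 45.5 against 2.15 to 6.67 CPM, with 20 of 21 high-class libraries above every low-class one and a ratio of medians of 4.64. His2B overlapped (10.5 to 106 against 6.39 to 16.7 CPM, ratio of medians 1.75), as did His1 (24 to 193 against 33.8 to 105 CPM, ratio 1.03) and His4 (1.28 to 8.99 against 0.428 to 4.02 CPM, ratio 1.24). How many of all rows divide by class without overlap is not given here.

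The 5 groups of mixed class, which are mixed only through the 8 libraries found out of place, could be read in the same way. In all 5 the high-class libraries lay above the low-class ones for His2A and His3, in 4 of 5 for His2B and in 3 of 5 for His4. For His2B in delta E the gap was small, at 13.9 CPM against at most 13.8 CPM, and for His4 in delta E the high-class library lay below. In HpoN+PH, PCP, delta B and also delta E, a single library made up 1 side. In HpoC, for example, His3 was at 20, 24 and 24 CPM in the high-class libraries and at 3.4 and 4.45 CPM in the low-class ones. His1 had no common direction, being above in PCP and delta E, below in HpoC and HpoN+PH, and overlapping in delta B. Of all histone counts, His1 took 53.3% in the high class and 73.8% in the low class, His3 14.5% and 4.86%, His2A 14.5% and 7.68% and His4 1.76% and 1.91% (means over 21 libraries each). Counts on 316 genes of small RNAs without poly(A) tails, such as small nuclear RNAs, also divided by class. They made up 0.0054 to 0.0306% of counts in the high class and 0.0024 to 0.0044% in the low class. What the class stands for was not tested.

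**Figure D4:**
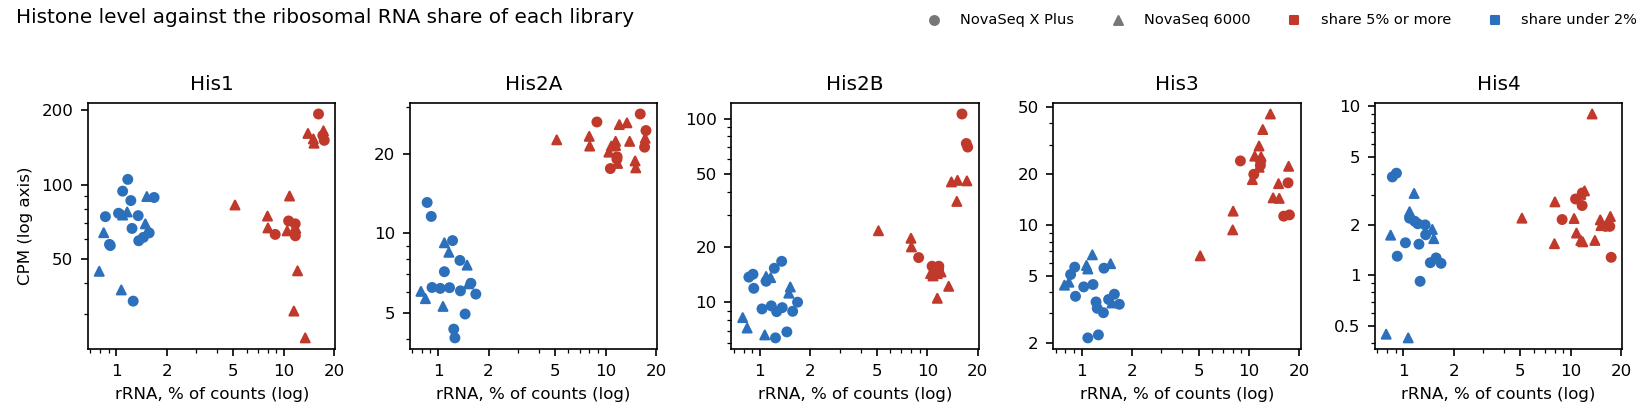
Level of each histone type (CPM, log axis) against the percent of the library's counts on ribosomal RNA genes (log axis), 1 point per library, with the sequencer as shape and the class as colour. His2A and His3 divide by class, and the 7 libraries of highest His1 (147 to 193 CPM) and His2B (35.4 to 106 CPM) all have 13.93% or more on ribosomal RNA genes.

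The 7 libraries with the highest His1 and His2B were both of wild type on the X Plus, the 4 of delta A and PCP 5. They were also the highest in differentiated muscle genes apart from delta C 1: Mhc, Mlc2, Act57B, Mlp84B and up summed to 470 and 925 CPM in wild type, 382, 230, 414 and 330 CPM in delta A and 373 CPM in PCP 5. Delta C 1 had 299 CPM and the other 34 libraries 15.9 to 155 CPM. Salivary gland genes, whose tissue replicates DNA without dividing, summed to 33.9 and 88.8 CPM in the X Plus wild type, 74.3 to 205 CPM in delta A and 67.1 CPM in PCP 5, but to 175 CPM in HpoN+PH 3, where His2B was at 16.7 CPM. Fat body genes reached 12600 CPM in PCP 2 and midgut genes 857 and 1480 CPM in delta A 1 and 4. Summed levels of S phase genes (2480 to 3610 CPM) did not set these 7 libraries apart. Sums of G2 and M phase genes (1660 to 2340 CPM) were highest in the X Plus wild type (2270 and 2340 CPM) and PCP 5 (2310 CPM). Delta A, at 1840 to 2070 CPM, lay among the other libraries in these sums. The part of these tissues in the histone levels was not tested.

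Which copy of His1 carried the counts also differed between libraries. His1:CG33840 held 97.1 to 99.3% of His1 counts in 20 libraries, all those of HpoN+PH, delta A, delta C and delta F with HpoC 3 to 5, PCP 1 and 2 and delta E 4, and 0 to 80.4% in the other 22; the 90% that divides them was chosen after the data were seen. In Fd5-5, HpoC 1 and 2, delta D 1, wild type 6000 1 and delta B 4 the leading copy was His1:CG33816, with 47.2 to 60.1% of His1 counts, and in delta D 2 and 3 and wild type 6000 2 and 3 it was His1:CG33813, with 33.0 to 37.9%. Low counts of the other His1 copies in the 20 libraries follow from this division itself. His1:CG33816 had 0 to 11.9 counts in the 20 libraries and up to 2044.4 in the others. His1:CG33813 had 0 to 11.8 counts in the 20 and 57.6 to 922.9 in the 22.

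This division crossed the ribosomal RNA class: of the 20 libraries 15 were high class and 5 low class, among them HpoN+PH 2 to 4 and PCP 1 and 2. It split some labels, with HpoC 1 and 2 like Fd5-5 (34.4 and 34.3% on His1:CG33840, 95% Wilson interval 32.6 to 36.2% in HpoC 1, against 30.2 and 34.4% in Fd5-5), and delta E 4 at 98.5% where delta E 1 to 3 had 42.5 to 54.2%. PCP was split as well, with 99.0 and 98.0% in PCP 1 and 2 and 74.5, 67.4 and 76.7% in PCP 3, 4 and 5, against 77.1 and 80.4% in the X Plus wild type. Of the 8 libraries found out of place, HpoN+PH 1 (98.9%) and delta B 4 (41.1%) lay within the range of the others of their label, at 98.3 to 99.2% and 29.7 to 42.1%. His1:CG33810 and His1:CG33825 had equal counts, within 0.05 counts, in all 42 libraries and were above 0 in 4 of them, delta D 2 and 3 and wild type 6000 2 and 3. Together they held 33.9 to 50.8% of His1 there. The intervals cover counting error only, not the sharing of reads between copies.

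Leading copies changed in the other types too. His3:CG33833 led in 40 libraries and His3:CG33827 in 2, wild type 6000 2 and 3, with 55.9% in each. His2B:CG33886 led in 38 libraries, with 53.8 to 96.3% of His2B counts, and His2B:CG33874 in 4, with 40.2 to 58.4%. For His2A the lead was divided, with His2A:CG33808 ahead in 25 libraries and His2A:CG33832 (FBgn0053832, 21483227 to 21483719) in 17. His4:CG33901 led in 37 libraries.

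**Figure D5:**
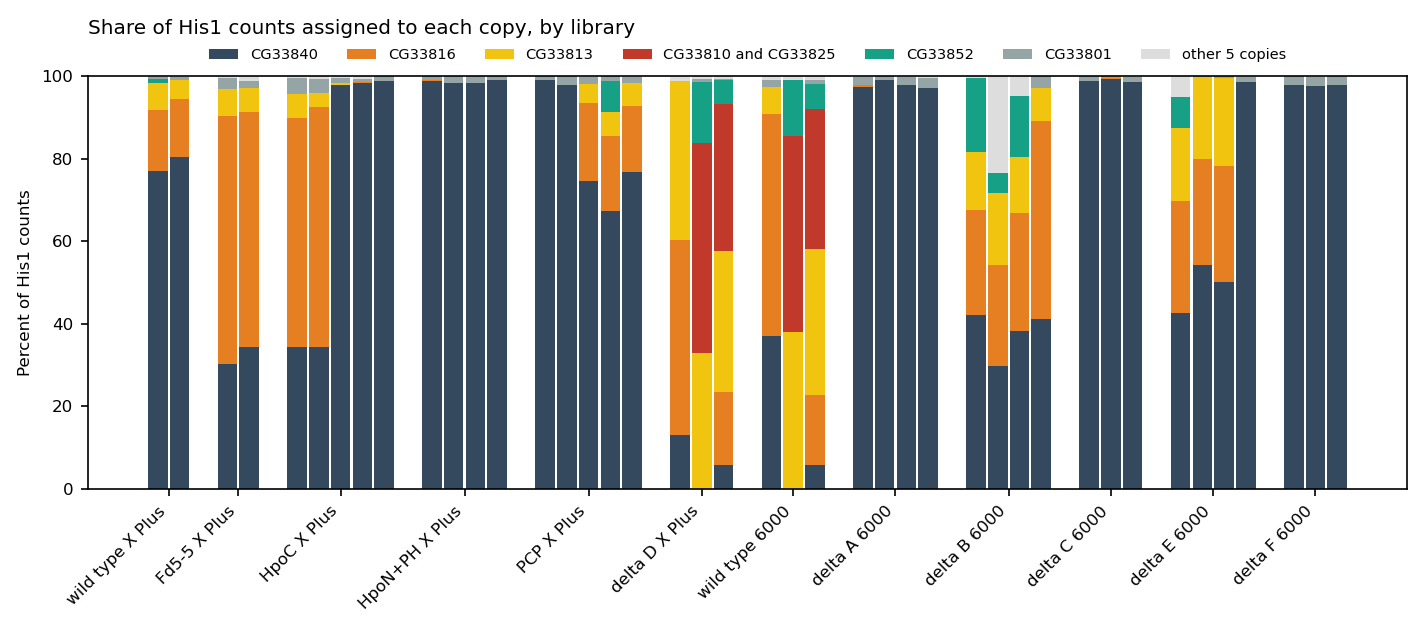
Percent of the His1 counts of each library assigned to each copy (stacked bars, 1 per library in order of replicate number, by group). His1:CG33840 takes nearly the whole bar in HpoN+PH, delta A, delta C and delta F and a minority in Fd5-5, delta D and wild type on the 6000, where His1:CG33816, His1:CG33813 and the equal pair His1:CG33810 and His1:CG33825 take the rest.

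The genes that replace or regulate these histones were read from lists of known genes. Histone variants are made also outside S phase, from genes whose mRNAs carry poly(A) tails. His4r, a polyadenylated His4 gene outside the array, was higher in delta A and lower in delta D, as array types were. It was at 1500 ± 355 CPM in delta A against 492 ± 67.4 CPM in wild type (log2 1.57, SE 0.39, edgeR adjusted p = 0.00408). In delta D it was lower than in wild type (log2 −2.14, SE 0.71, edgeR adjusted p = 0.0388). The wild types differed in it as well, at 492 CPM on the 6000 against 1640 CPM on the X Plus (log2 −1.73, SE 0.61, edgeR adjusted p = 0.0381). The genes of the replacement histone His3.3 went opposite ways in delta A, His3.3A up (log2 1.40, SE 0.43, edgeR adjusted p = 0.0116) and His3.3B down, at 135 ± 30.3 against 1630 ± 203 CPM (log2 −3.63, SE 0.87, edgeR adjusted p = 0.0033). By class, His3.3B was at 74.1 to 208 CPM in the high-class and 1160 to 1860 CPM in the low-class libraries, and His2Av, the variant of His2A, at 677 to 1250 and 462 to 726 CPM. Beside 58.5% of all rows called in delta A, 32.3% in delta B, 65.8% in delta C, 56.7% in delta F and 26.6% in delta D, the counts over the lists were as follows. Of 5 variants tested, 2 rose and 1 fell in delta A, 2 rose in delta B, 4 rose and 1 fell in delta C and in delta F, and 1 fell in delta D. In Fd5-5, HpoC, HpoN+PH, PCP and delta E 0 were called (3.61 to 5.11% of all rows).

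Of the 8 genes of histone transcription, 5 fell in delta A, 4 in delta B, and 5 in delta C and delta F, where 1 also rose (median log2 −0.62, −0.52, −0.89 and −0.60, against −0.03 to 0.05 over all rows). The locus body scaffold mxc was at 21.6 ± 6.5 CPM in delta A against 125 ± 11.6 CPM in wild type (log2 −2.57, SE 0.75, edgeR adjusted p = 0.00873), and mute, another component, fell by 1.21 on the log2 scale (SE 0.28, edgeR adjusted p = 0.00292). So in delta A the locus body genes were lower and the array types higher. By class mxc was at 7.33 to 31.3 CPM in the high-class and 86.5 to 154 CPM in the low-class libraries, and mute at 33.4 to 77.5 and 111 to 154 CPM, both without overlap. On the X Plus 0 of the 8 were called in Fd5-5, HpoC, HpoN+PH and PCP (3.61 to 4.83% of all rows), and in delta D 1 rose (26.6% of all rows called).

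Of the genes of histone pre-mRNA processing 16 of 17 have a row and 15 were tested; 2 rose in each mutant of the X Plus, Ars2 (log2 1.42 to 1.85), a cap-binding partner, and SmD3 (log2 4.43 to 5.24), a protein of small nuclear ribonucleoproteins, and 3 others fell in delta D. Wild type on the 6000 was higher than that on the X Plus in the same genes (Ars2 log2 1.71, SmD3 log2 4.76). Of all rows, 3.06 to 11.3% were called higher in the mutants of the X Plus, and 15.3% lower in delta D. On the 6000, 3 rose and 2 fell in delta A, 5 rose in delta B, 9 rose and 1 fell in delta C and 6 rose and 1 fell in delta F. Slbp was at 86.2 ± 12.5 CPM in delta A against 65.6 ± 6.05 CPM in wild type (log2 0.35, SE 0.22, edgeR adjusted p = 0.169) and was called in delta C alone (log2 0.64). The U7 small nuclear RNA, snRNA:U7, was at 0 to 0.0339 CPM and could not be tested. Of 9 histone chaperones, which carry histones to and from DNA, 4 rose and 3 fell in delta A, 2 rose and 1 fell in delta B, 4 rose and 4 fell in delta C and in delta F and 1 rose and 3 fell in delta D (58.5, 32.3, 65.8, 56.7 and 26.6% of all rows called), with Nap1 up (log2 1.04 in delta A) and XNP down (log2 −1.24).

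S phase genes did not move in 1 direction with the histones. Of 22 tested, 5 rose and 12 fell in delta A and delta F, 5 rose and 14 fell in delta C, 2 rose and 7 fell in delta B, 3 rose in delta D and 1 fell in delta E, against 58.5% of all rows called in delta A, 56.7% in delta F, 65.8% in delta C, 32.3% in delta B, 26.6% in delta D and 5.11% in delta E. The replication clamp PCNA was at 498 ± 57.3 against 231 ± 31.6 CPM in delta A (log2 1.07, SE 0.33, edgeR adjusted p = 0.0112), whereas CycE, the cyclin of S phase entry, fell from 118 ± 14.9 to 64.4 ± 7.36 CPM (log2 −0.91, SE 0.15, edgeR adjusted p = 0.000601). E2f1, the transcription factor of the S phase programme, was called lower there (log2 −1.45, edgeR adjusted p = 0.0038) and higher in all 5 mutants of the X Plus (log2 1.36 to 1.91). In Fd5-5 it was the only one of the 22 called (4.48% of all rows). It was also higher in the 6000 wild type than in the X Plus one (log2 1.83, edgeR adjusted p = 0.00283). So was CycE, at 118 against 64.8 CPM (log2 0.86, edgeR adjusted p = 0.00527). PCNA was at 231 CPM in the 6000 wild type and at 502 CPM in the X Plus one (log2 −1.12, edgeR adjusted p = 0.0837). Delta A was thus near the X Plus wild type in CycE and PCNA. For mitosis, the phosphatase gene stg fell by 0.43 on the log2 scale in delta A, and of the 11 G2 and M phase genes 3 rose and 6 fell there.

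Short transcripts and ribosomal protein genes were shifted in the same direction as the histones in each comparison of a mutant with its wild type, but not in delta A against delta C. Genes whose longest transcript has at most 1000 bases had a median log2 change of −0.69 in Fd5-5, −0.93 in delta D, 0.82 in delta A and 1.09 in delta C. For ribosomal protein genes the medians were −2.40, −2.67, 2.23 and 2.66, and for the 5 histone types −1.84, −1.83, 1.78 and 0.99, against −0.05 to 0.05 over all rows. In delta A against delta C the medians were −0.23 for short transcripts, −0.43 for ribosomal proteins and 0.87 for the histone types, and in delta A against delta F 0.05, −0.22 and 0.06. With the trend of level with transcript length removed per library, the called types went from 4 to 2 in delta A, from 3 to 1 in delta D and from 3 to 1 between the wild types. The log2 values then were 0.56 for His1, 1.09 for His2A, 1.56 for His2B and 1.16 for His3 in delta A, and −0.75 for His1, −1.55 for His2A and −2.63 for His2B in delta D. Between the wild types they were −0.77, −1.40 and −2.47 for His1, His2A and His2B. Whether the libraries were made from poly(A) RNA is not given in the sources used here, and its part in these levels was not tested.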

How the data were processed

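RNA from wing discs was sequenced in 42 libraries from 10 ng of total RNA, with 12 to 15 amplification cycles and paired reads of 150 bases, per the labels' protocols. The authors deposited estimated counts per gene, not normalized; per the submitters' processing notes they used Trimmomatic 0.33, FastQC 0.10, Salmon 1.80, edgeR and dm6. RNA selection, strandedness and the handling of equal sequences are not given in the sources used here. Of 17208 gene identifiers 17083 matched the annotation (BDGP6, release 6), and 1 row has no symbol.

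The counts of the copies of each type were added up, all counts were rounded, and edgeR 4.0.16 in R 4.3.3 served for the tests (TMM scaling, filterByExpr, quasi-likelihood F test). There was 1 fit per sequencer (X Plus 10756 rows, 6000 10324 rows; each with 15 residual degrees of freedom) and 1 fit of all 42 libraries (11272 rows) for comparisons across sequencers. The biological coefficient of variation was 49%, 39.2% and 45.3%. P values were adjusted over all rows (Benjamini and Hochberg, threshold 0.05). Levels are CPM with TMM factors over the 42 libraries, as mean ± SD; DESeq2 was version 1.42.0.

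The members, gene lists and the 3% that divides the ribosomal RNA classes were chosen with earlier results of these data known. Text names the 5 types, the highest and lowest copy of each type, 12 genes of histone and cell cycle control, and up to 3 called members of smallest p per list; other copies and library values were named after their values were seen. SmG and Prim1 have no row, and NASP was read as CG8223. Fit and filters were tested on simulated data. The labels do not say that equal replicate numbers share an animal or batch, and deviations of same-numbered libraries from their group means correlated at r −0.203 to 0.228, in no comparison of 3 pairs above 0.1 in each; the replicate block is an alternative only.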

Additional observations from a re-analysis of the deposited data

Results flagged for a closer look

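Sets of 4 or 5 libraries, 1 per type and group, were tested for a library standing apart from the rest of its group. In 7 of the 30 sets a single library lay beyond the critical gap. Chance flags about 1 in 20 sets, but the 5 types were read in the same libraries. The sets are therefore not independent, and 7 of 30 cannot be weighed against that rate. PCP 5 was the highest of 5 in His1, at 193 CPM against 74.2 CPM in the next, and in His2B, at 106 against 14.2 CPM. HpoN+PH 1 was the highest of 4 in His3, at 22.6 against 3.51 CPM. Delta E 4 was the highest of 4 in His3, at 25.6 against 6.67 CPM, and in His2A, at 21.4 against 9.22 CPM. These 3 libraries are the single high-class library of their groups and are among the 8 found out of place. In 2 sets the lowest library stood apart: delta A 4 in His2B, at 35.4 against 45.2 CPM in the next, and delta E 3 in His2B, at 11.2 against 13.6 CPM.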

How the results depend on the processing

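Of the 75 pairs of type and comparison 23 were called, and over all alternatives their values kept sign and call 313 times, lost the call 86 times and changed sign 11 times. Single types were followed this way only where called in the tests reported, a restriction made after the values were seen. Among 930 values of the other 52 pairs, 79 had the other sign and 77 were called, 5 of them with the other sign: PCP His2B (0.59 within the class, 1.84 against the other wild type), delta B His2B (−2.65) and delta E His2B (−2.45) against the other wild type, and delta C His3 (−1.53 with the class as a term).

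The share of all rows called moved between fits too. Without the 8 libraries it was 39.7 to 64.9% in Fd5-5, HpoC, HpoN+PH, PCP and delta B, against 3.61 to 32.3% in the tests reported. With the class as a term it was 0.107 to 7.72% in delta D, delta A, delta B, delta F and between the wild types, against 24.8 to 58.5%. Changes in the number of types are thus not particular to histones. These numbers moved as follows, and the cause was not tested. Fd5-5 against wild type, with 0 called, had 1 with the replicate block, the length trend removed or 1 fit of all 42 libraries, and 4 with only the 2 groups compared, without libraries nearer another label or without the 8. HpoC went from 1 to 0 with DESeq2 or the other wild type and to 3 within the class or without the 8. HpoN+PH went from 0 to 1 with the replicate block, all 42 libraries or only the 2 groups, to 2 within the class and to 4 without libraries nearer another label or without the 8. PCP went from 0 to 1 with the replicate block, within the class or against the other wild type, and to 5 without libraries nearer another label or without the 8. Delta D went from 3 to 0 with the class as a term or the other wild type and to 1 with the length trend removed. Delta A went from 4 to 2 with the class as a term or the length trend removed and to 0 against the other wild type. Delta B went from 3 to 0 with the class as a term, only the 2 groups or within the class, and to 5 without the 8. Delta C went from 2 to 0 against the other wild type. Delta E went from 0 to 1 with DESeq2, without the 8 or against the other wild type. Delta F went from 3 to 0 with the class as a term and to 1 against the other wild type. In 1 fit of all 42 libraries, delta A against delta C went from 2 to 0 and delta A against delta F from 2 to 1. Delta C against delta F went from 0 to 1 with the class as a term or without libraries nearer another label, and to 2 with only the 2 groups or without the 8. The wild types went from 3 to 1 with the class as a term or the length trend removed. The replicate block changed no other count by over 1.5 times.

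Against the other wild type the log2 value changed sign for His2B in HpoC (0.66), His2A (−0.16) and His2B (−0.73) in delta A, His2A (−0.19) in delta B, His2A (−0.03) and His2B (−1.68) in delta C and His2A (−0.19) and His2B (−2.30) in delta F. His3 changed sign with the class as a term in delta A (−0.65) and delta F (−0.33), and within the class in delta B (−0.07).

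Leaving out 1 library at a time gave 0 to 0 called types in Fd5-5 and HpoC against wild type, 0 to 1 in HpoN+PH, delta D and delta E, 0 to 2 in PCP, 3 to 4 in delta A, 0 to 5 in delta B, 2 to 2 in delta C, 2 to 3 in delta F, 0 to 0 between Fd5-5 and delta D and between delta C and delta F, 0 to 2 between delta A and delta C, 1 to 2 between delta A and delta F and 1 to 3 between the wild types. The shares of all rows called in these fits are not given here.

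The alternatives without the 8 libraries and with the other sequencer's wild type were chosen after seeing the data. Leaving out libraries nearer another label took 17 of 42, with all of HpoC, delta B and delta E, so it gave no value there. Keeping the reference group's class gave none for Fd5-5, delta D, delta A, delta C and delta F. His4, at 10 to 266 counts per library, is limited by counting error.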
